A study of Mus musculus with 24 samples.

Results

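The genes described here are 39 lysosomal genes of 24970 gene symbols measured, chosen by name: 16 hydrolases, 4 lumen proteins that assist them, 6 membrane proteins, 9 genes of the proton pump, the 3 transcription factors Tfeb, Tfe3 and Mitf, and the autophagy receptor Sqstm1. All 39 were listed in each of 4 tables of mouse poly(A) RNA, with 24 libraries in all. Controls had the genotype Sftpc-CreER/+; R26-tdT/+, and knockouts carried let7afd-/- as well, so both genotypes held the Cre driver and the tdTomato reporter, and both received tamoxifen. Alveolar type II (AT2) cells, the surfactant-making cells of the alveolus, were sorted after 6 days of tamoxifen in 3 control and 3 knockout libraries, each a pool of 3 mice. Whole lungs came from 3 mice of each genotype at 6 days and from 4 of each after 6 months of booster tamoxifen. Organoids grown from AT2 cells for 14 days in AMM medium came from 2 mice of each genotype after 6 days of tamoxifen. The CreER driver is under control of Sftpc, a gene of AT2 cells, so other cells of a whole lung were not targeted by design, and the sources used here do not give the ages of the mice.

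Lysosomes digest lipids, glycans and proteins with hydrolases that work in acid. The acid is made by the vacuolar proton pump, in which a V1 sector in the cytosol hydrolyses ATP and a V0 sector in the membrane carries protons. Heavily glycosylated membrane proteins such as Lamp1 line the organelle, and the MiT/TFE factors Tfeb, Tfe3 and Mitf switch on many lysosomal genes through E-box sequences in their promoters. Macrophages, which digest surfactant in the alveolus, are rich in lysosomes, and the lamellar body in which AT2 cells store surfactant is a lysosome-related organelle. The let-7 microRNAs lower the messages that pair with their seed.

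The mature sequences of the deleted cluster on chromosome 13 are printed because the matches searched below are based on their seed (bases 2 to 8, in capitals), which they share (RefSeq, GRCm38.p6). Other forms of pairing were not searched.
let-7a: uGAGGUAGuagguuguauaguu
let-7d: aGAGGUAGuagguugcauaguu
let-7f: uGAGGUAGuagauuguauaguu
The same let-7f sequence is also listed for a hairpin on chromosome X, outside that cluster. In the longest annotated 3′ UTR of each gene (GENCODE M21, GRCm38), the 8-base match CTACCTCA was found in 4 of 39 members, 10.3%, against 3.68% of 19884 genes. Any match, counting also CTACCTC and TACCTCA, was found in 8 members, 20.5%, against 16.8% of all genes. The 8-base matches that lay in a 3′ UTR of a principal transcript are given with 30 bases in all, read 5′ to 3′ on the gene's strand, with the match in capitals. A match is a description and does not show pairing.
Gla, chrX:134588261-134588290, minus strand: aatacaagtctCTACCTCAgggggtggggg
Gusb, chr5:129989491-129989520, minus strand: taaagttacaaCTACCTCActgcagactca
Npc2, chr12:84755602-84755631, minus strand: gcctcctgcttCTACCTCAagtgctgagat
Atp6v0a1, chr11:101063380-101063409, plus strand: gccctcgccggCTACCTCAtgtactgtgga
Gusb had a second match in its longest 3′ UTR, which was coding sequence in the principal transcript. The 7-base matches were in Asah1, Tpp1, Pld3 and Atp6v1b2.

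Promoter windows of 300 bases, 250 before and 50 after the start (RefSeq, GRCm38.p6), were matched for 33 of the 39 members and 18203 genes. The E-box core CACGTG, which reads the same on both strands, was present in 6 members, 18.2%, against 9.12% of all promoters. The longer palindrome TCACGTGA, which contains that core and is the form known for MiT/TFE binding at lysosomal promoters, was present in 4 members, 12.1%, against 1.45% of all promoters. The members were chosen as lysosomal genes and this form is known from lysosomal promoters, so its share is not independent of that choice. In the stretches below the capitals mark TCACGTGA, or CACGTG where only the core is present.
Gla, chrX:134601174-134601252, minus strand: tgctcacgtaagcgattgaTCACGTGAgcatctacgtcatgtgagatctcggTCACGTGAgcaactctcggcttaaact
Mcoln1, chr8:3500462-3500491, plus strand: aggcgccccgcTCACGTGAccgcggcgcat
Atp6v0d1, chr8:105566050-105566079, minus strand: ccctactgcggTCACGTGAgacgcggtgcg
Atp6v1a, chr16:44139373-44139402, minus strand: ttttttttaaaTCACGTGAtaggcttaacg
Lamp1, chr8:13159080-13159160, plus strand: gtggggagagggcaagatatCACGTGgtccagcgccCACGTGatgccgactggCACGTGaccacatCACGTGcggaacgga
Glb1, chr9:114401010-114401055, plus strand: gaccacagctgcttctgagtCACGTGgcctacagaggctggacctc
Gla carried 2 copies of the palindrome and Lamp1 carried 4 of the core. Mcoln1 held 2 copies of the core, of which 1 is printed. By the GENCODE M21 gene starts, the printed Mcoln1 and Atp6v1a stretches lie inside the gene and not before it. A match is a description and not a measured binding site, and no match says only that these letters were not in the window.

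Values were deposited as TPM, transcript abundance scaled for gene length and to a fixed library total, with library sums of 999920 to 999972, so the number of reads behind a value is unknown and levels can be compared between genes. The 3 let-7 hairpins of the deleted cluster were listed at 0 TPM in all 24 libraries, so these poly(A) libraries do not check the deletion. The label of the sorted cells held: 12 AT2 markers made up 20.8% to 22.3% of TPM in control AT2 cells and 13.8% to 19.8% in knockouts. No 2 libraries held identical values, and the lung labels describe separate mice.

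Among control AT2 cells the members ranged from Npc2 at 2698 ± 104 TPM (SD, n = 3) down to Atp6v0d2 at 1.88 ± 0.604. Npc2, which hands cholesterol to Npc1 in the lumen, and Cd63, a tetraspanin of late endosomes at 1548 ± 149 TPM, stood above all other members, and no library of either overlapped with the next. Sqstm1 at 530.4 ± 121 and Lamp1 at 529 ± 9.03 came next and overlapped. Lipa at 2.06 ± 0.309 TPM and Acp5 at 4.84 ± 0.921 were near the bottom. In control lungs Psap, the precursor of the saposins that present lipids to hydrolases, was highest, with 1068 ± 150.2 TPM at 6 days (n = 3) and 892 ± 58.6 at 6 months (n = 4), and Mitf was lowest, with 6.26 ± 1.18 and 5.64 ± 0.729. The tables were normalized apart, so levels set side by side across them have no test.

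In sorted AT2 cells, 6 of 39 members rose in the knockouts and none fell. The 6 were the hydrolases Lipa, Acp5, Gla and Gusb and the pump subunits Atp6v0d2 and Tcirg1, and those with the largest fold changes, Lipa, Atp6v0d2 and Acp5, were the 3 members with the lowest control level. Over all 12109 genes tested, 6.62% were called higher and 1.22% lower. The median log2 fold change (knockout minus control on log2(TPM + 1), which understates the change of low genes) was 0.20 over the members and 0.08 over all genes tested. Calls are limma adjusted p-values under 0.05, adjusted over all genes of the table. The scaling mattered here: 84.4% of all calls were higher as deposited, 67.3% once median-ratio factors were applied and 65.1% with quantile normalization, and 2 members were called under either. Over all genes, 802 were called higher as deposited, 420 with median-ratio factors and 399 with quantile normalization.

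Lipa, the acid lipase that frees cholesterol and fatty acids from stored esters (chr19:34492318-34527474; gene coordinates are of GENCODE M21, GRCm38), had 2.41, 1.83 and 1.94 TPM in control AT2 cells and 9.12, 5.71 and 9.38 in knockouts. Every knockout library lay above every control, a 3.91-fold difference of means and a log2 fold change of 1.54 ± 0.19 (SE; adjusted p = 0.00587). It was the only 1 of the 6 calls that held under every alternative run. Acp5, the tartrate-resistant acid phosphatase of osteoclasts and macrophages (chr9:22126727-22135711), had 5.53, 3.80 and 5.21 TPM in controls and 9.59, 7.11 and 9.04 in knockouts. The groups did not overlap, and the log2 fold change was 0.72 ± 0.16 (adjusted p = 0.0366). Gla, the galactosidase that trims globotriaosylceramide (chrX:134588149-134601125), had 8.00, 7.37 and 8.95 TPM in controls and 14.5, 11.3 and 11.6 in knockouts, again without overlap (0.56 ± 0.12, adjusted p = 0.0365). Gusb, the glucuronidase, spanned 30.9 to 36.8 TPM in controls and 42.6 to 48.8 in knockouts (0.40 ± 0.09, adjusted p = 0.0408). Gla and Gusb are also 2 of the 4 members with an 8-base let-7 match, and the other 2, Npc2 and Atp6v0a1, did not pass. Lipa, Acp5, Tcirg1 and Atp6v0d2 held no match in the 3′ UTR searched. Gla passed in 5 and Gusb in 4 of 14 alternative runs. The 12 hydrolases that did not pass had log2 fold changes from -0.15 (Ids, which takes sulfate off iduronate) to 0.36 (Tpp1, a peptidase).

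Of the pump, the V0 subunit Atp6v0d2 (chr4:19876841-19922605), a form of subunit d known from osteoclasts and macrophages, had 1.68, 1.41 and 2.56 TPM in control AT2 cells and 5.72, 3.96 and 5.34 in knockouts. All knockout libraries were higher (1.07 ± 0.19, adjusted p = 0.0203), at a level of only a few TPM. Tcirg1 (chr19:3896050-3907133), the a subunit named for its role in osteoclasts and T cells, had 9.68, 8.08 and 7.46 TPM in controls and 12.5, 11.9 and 13.3 in knockouts, without overlap (0.53 ± 0.11, adjusted p = 0.0342). Atp6v0d1, the widely expressed form of subunit d, had 159.8, 156 and 169 TPM in controls and 205, 188 and 206 in knockouts. These groups did not overlap either, but the gene missed the threshold (0.30 ± 0.08, adjusted p = 0.0547). The other 6 pump members had log2 fold changes between -0.03 and 0.20.

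No lumen cofactor (0 of 4; 1 with an unadjusted p under 0.05) or membrane protein (0 of 6; 2) passed in AT2 cells by limma. Lamp1 had 534, 519 and 535 TPM in controls and 756, 581 and 540.2 in knockouts; the knockouts lay above the controls, but 1 library carried most of the gap (0.22 ± 0.13, adjusted p = 0.31). Cd63 came nearest, with 1389 to 1685 TPM in controls and 2021 to 2385 in knockouts (0.49 ± 0.14, adjusted p = 0.0647). Tfeb, a master factor of lysosomal genes, had 9.17, 9.17 and 7.10 TPM in controls and 8.00, 9.09 and 9.12 in knockouts. Tfe3 had 19.5, 21.4 and 24.2 TPM in controls and 27.9, 23.9 and 31.7 in knockouts. Mitf had 20.4, 20.3 and 16.2 TPM in controls and 16.9, 21.2 and 24.7 in knockouts. The groups overlapped for all 3 factors, with log2 fold changes of 0.04 ± 0.12, 0.34 ± 0.12 and 0.13 ± 0.15 (smallest adjusted p = 0.123).

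Alveolar macrophage and leukocyte markers moved with these calls. The summed TPM of 15 alveolar macrophage markers was 75.0 to 114 in control AT2 libraries and 195 to 318 in knockouts, with 4 of the 12 tested higher and no marker at 0 in any library. The log2 fold changes of those 12 ran from -0.03 to 2.96, with a median of 0.76. Marco, a scavenger receptor of alveolar macrophages, averaged 0.452 ± 0.177 TPM in controls and 11.1 ± 5.33 in knockouts (SD, n = 3). The 10 pan-leukocyte markers summed to 182 to 251 TPM in controls and 272 to 343 in knockouts. The 6 lipid-associated macrophage markers summed to 1889 to 2342 TPM in controls and 1865 to 1976 in knockouts, which overlapped, although 3 of the 6 were higher. The 11 monocyte and interstitial macrophage markers ran the other way, at 1051 to 1180.1 TPM in controls and 592 to 994 in knockouts without overlap, with 0 of 8 tested called by limma (3 with an unadjusted p under 0.05). Most of that sum was Apoe, at 1028 ± 79.0 TPM in controls and 715 ± 199 in knockouts, which did not pass. The 5 erythrocyte markers, at 81.3 to 160.0 TPM in controls and 285 to 481 in knockouts, also differed (2 higher of 3 tested). Their part in the rise of the 6 members was not tested. In bulk samples, including the whole lungs below, more cells of a type and more RNA per cell cannot be told apart.

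The calls in AT2 cells depended on single libraries. Leaving out control 1, 2 or 3 left 2, 1 and 2 members called higher, and leaving out knockout 1, 2 or 3 gave 2, 7 and 1; with no filter on low values 1 was called.

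**Figure D1:**
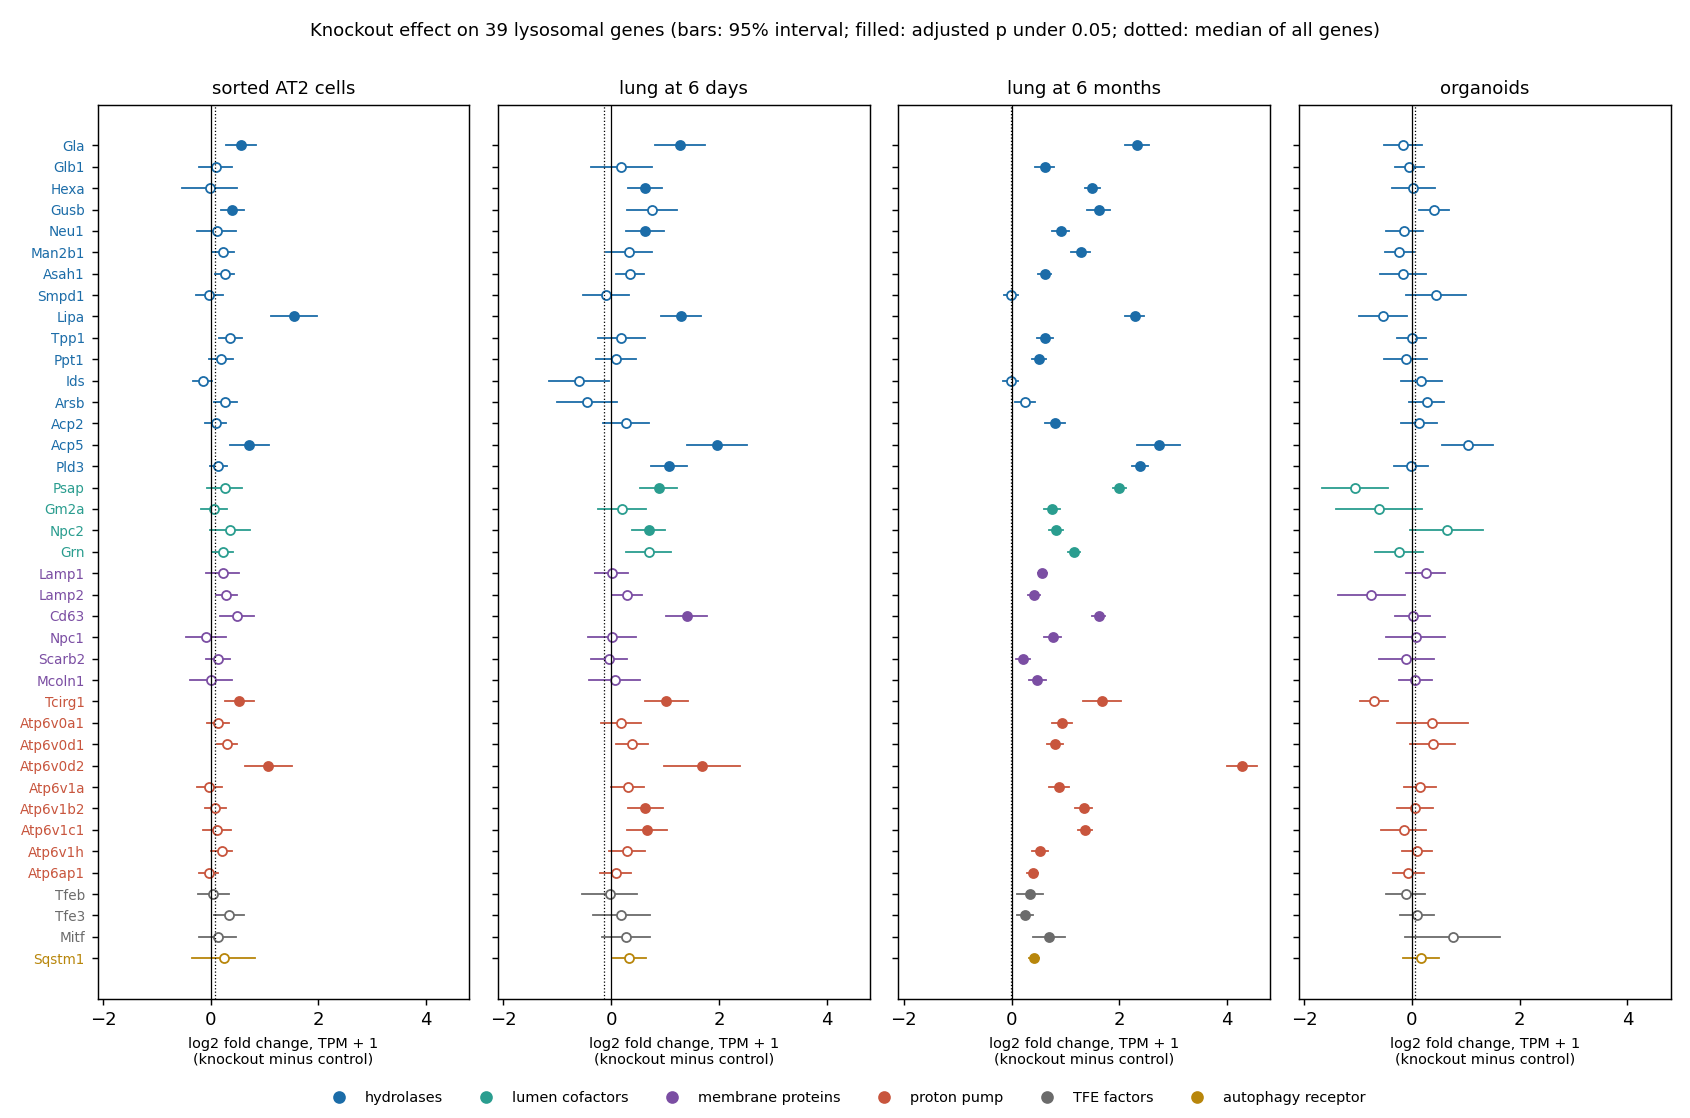
Log2 fold change of each of the 39 members (x axis, knockout minus control on log2(TPM + 1)) with its 95% interval, in 4 panels for the 4 kinds of sample; colours mark roles, filled points passed the adjusted p threshold, and the dotted line is the median of all genes tested. Filled points number 6 in AT2 cells, 13 in lung at 6 days, 36 in lung at 6 months and 0 in organoids, all to the right of 0.

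In whole lung after 6 days, 13 of 39 members rose in the knockouts and none fell. They were 6 hydrolases (Acp5, Lipa, Gla, Pld3, Neu1 and Hexa), the lumen proteins Psap and Npc2, the membrane protein Cd63, and 4 pump subunits (Atp6v0d2, Tcirg1, Atp6v1c1 and Atp6v1b2). No TFE factor passed by limma or had an unadjusted p under 0.05. Of 14154 genes tested, 3.16% were called higher and 3.79% lower. The members' median log2 fold change was 0.31, and that of all genes was -0.14; after median-ratio scaling the medians were 0.46 and 0.00, and 15 members passed. That scaling also raised the number of all genes called higher, from 447 as deposited to 946. Together the 39 members held 0.565% to 0.650% of TPM in control lungs and 0.862% to 0.965% in knockouts.

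Acp5 showed the largest change of a member at 6 days, with 30.2, 52.6 and 31.9 TPM in controls and 136, 128 and 184 in knockouts. Every knockout lung was far above the highest control, a 3.91-fold difference of means (1.97 ± 0.24, adjusted p = 0.00619). Lipa had 72.5, 97.8 and 73.7 TPM in controls and 216, 179 and 207 in knockouts, a 2.47-fold difference without overlap (1.30 ± 0.16, adjusted p = 0.00644). Gla had 7.82, 10.6 and 7.43 TPM in controls and 20.2, 19.9 and 26.7 in knockouts, a 2.59-fold difference (1.28 ± 0.20, adjusted p = 0.0129). In each of these 3 genes control 2 was the highest of the controls. Pld3 (chr7:27532000-27553218), an exonuclease that trims nucleic acids in the lumen, rose by 1.07 ± 0.15 on the log2 scale (adjusted p = 0.00836). Neu1, the sialidase, and Hexa, a subunit of hexosaminidase, rose by 0.64 (adjusted p = 0.0481) and 0.63 (adjusted p = 0.0354). The lowest values were those of Ids (-0.59 ± 0.24, adjusted p = 0.175) and Arsb, another sulfatase (-0.45 ± 0.24, adjusted p = 0.278); in both, knockout 3 was lowest.

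Psap (chr10:60277627-60302597) had 979, 1241 and 984 TPM in control lungs at 6 days and 2251, 1801 and 1849 in knockouts. The groups were well apart (0.88 ± 0.15, adjusted p = 0.0153), and no other member added as many TPM. Npc2 had 569, 569.7 and 568 TPM in controls, which barely varied, and 846, 859 and 1076 in knockouts (0.69 ± 0.13, adjusted p = 0.0223). Grn, progranulin, did not overlap between groups but missed the threshold (0.69 ± 0.18, adjusted p = 0.0621). Of the membrane proteins, Cd63 (chr10:128900989-128912822) had 322, 431 and 329 TPM in controls and 914, 839.6 and 1102 in knockouts, a 2.64-fold difference (1.40 ± 0.16, adjusted p = 0.00595). Lamp1, by contrast, had 848, 901 and 893 TPM in controls and 985, 931 and 765 in knockouts. These overlapped, with a log2 fold change of 0.01 (95% interval -0.29 to 0.32). The other 4 membrane proteins had values from -0.03 (Scarb2, which carries glucocerebrosidase to the lysosome) to 0.29 (Lamp2).

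In the pump, Atp6v0d2 had 32.2, 30.6 and 27.9 TPM in control lungs at 6 days and 98.8, 62.0 and 161 in knockouts. The knockouts were all higher but spread widely among themselves (1.69 ± 0.31, adjusted p = 0.0186). Tcirg1 had 45.2, 42.7 and 31.0 TPM in controls and 79.6, 77.4 and 84.8 in knockouts (1.02 ± 0.17, adjusted p = 0.0152). Atp6v1c1, the V1 subunit that links the sectors, had 52.0, 61.0 and 45.2 TPM in controls and 79.7, 80.0 and 91.5 in knockouts (0.67 ± 0.16, adjusted p = 0.0443). None of these overlapped. Atp6v0d1 had 109, 126 and 113 TPM in controls and 152, 146 and 158 in knockouts, apart but not past the threshold (0.38 ± 0.13, adjusted p = 0.109). All 9 pump members had a value above 0.

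The 3 factors overlapped between genotypes at 6 days. Tfeb had 21.4, 24.7 and 22.7 TPM in controls and 26.9, 26.2 and 15.9 in knockouts. Tfe3 had 30.2, 35.1 and 28.5 TPM in controls and 45.8, 39.6 and 25.0 in knockouts. In both, knockout 3 was the lowest of all 6 lungs. Mitf had 6.33, 7.40 and 5.04 TPM in controls and 8.54, 6.86 and 7.92 in knockouts. The 95% intervals of the log2 fold change were -0.53 to 0.48 for Tfeb, -0.34 to 0.72 for Tfe3 and -0.16 to 0.73 for Mitf.

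Summed macrophage markers were also higher in these lungs. The 11 monocyte and interstitial macrophage markers summed to 1905.5 to 2054.8 TPM in controls and 2286 to 3463.2 in knockouts. Of these 11, 1 was higher and 1 lower. The 15 alveolar macrophage markers summed to 1859 to 2092 TPM in controls and 3992 to 13423 in knockouts (5 higher and 3 lower of 15). Their log2 fold changes ran from -1.67 to 4.69 with a median of 0.15, and 8 were positive and 7 negative. The sum therefore does not stand for the list as a whole. The 6 lipid-associated macrophage markers summed to 1306 to 1576 TPM in controls and 4222 to 9495 in knockouts, with 5 of 6 higher. Leukocyte markers summed to 1851 to 2390.5 TPM in controls and 3142 to 3399 in knockouts, and AT2 markers to 40004 to 46701 TPM in controls and 20773 to 25228 in knockouts. The 5 markers of club cells, secretory cells of the airway, summed to 15.2% to 17.5% of TPM in controls and 7.00% to 8.67% in knockouts. Knockout 3 stood apart in other lists: erythrocyte markers summed to 84804 TPM there and 12841 to 45357 in the other knockouts, endothelial markers to 847 against 1552 to 2146, and fibroblast markers to 651 against 1294.5 to 2146. The part of these markers in the members' values was not tested. Leaving out control 1, 2 or 3 gave 2, 8 and 3 members called higher, and leaving out knockout 1, 2 or 3 gave 11, 7 and 19. With library weights 30 were higher and 2 lower, but the share of all genes called under those weights is not given. Acp5 and Cd63 held in every alternative run.

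**Figure D2:**
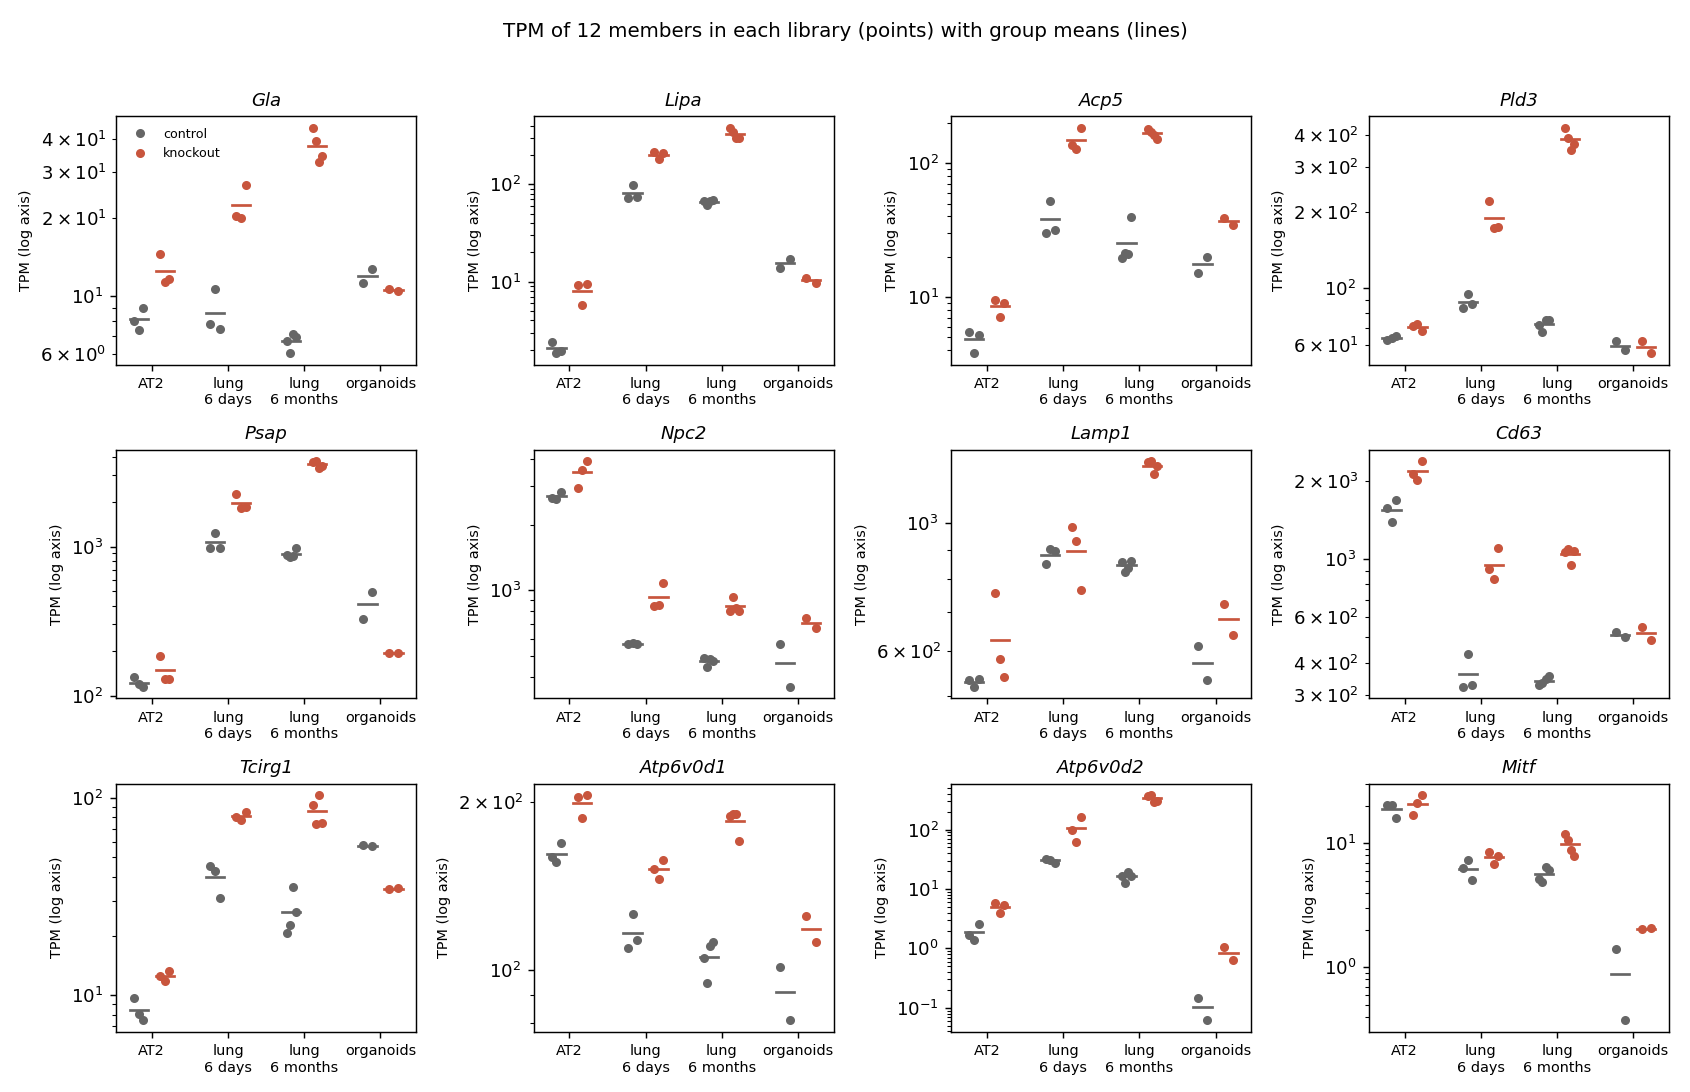
TPM (log axis) of 12 members in each library, with controls in grey, knockouts in red and lines for group means, for the 4 kinds of sample. Atp6v0d2 rises from 12.6 to 19.6 TPM in control lungs at 6 months to 290 to 384 in knockouts. Psap and Tcirg1 in organoids lie lower in knockouts, but 0 of 38 members tested passed there, with 2 libraries a group.

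In whole lung after 6 months, 36 of 39 members rose and none fell; Smpd1, Ids and Arsb did not pass. The 36 took in 13 of 16 hydrolases and every cofactor, membrane protein, pump gene and TFE factor of the set, and Sqstm1. Of 14177 genes tested, 15.9% were called higher and 13.9% lower. The members' median log2 fold change was 0.81, and that of all genes was -0.005. Of all calls, 53.5% were higher as deposited and 42.5% after quantile normalization, under which 35 members were higher. The members' share of TPM was 0.523% to 0.569% in controls and 1.19% to 1.30% in knockouts.

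Among the hydrolases, Acp5 had 19.5, 21.4, 21.0 and 39.3 TPM in control lungs at 6 months and 180.4, 172, 163 and 152 in knockouts. Control 4 lay apart from the other controls, and still every knockout was far above it (6.60-fold; 2.73 ± 0.18, adjusted p = 8.76e-07). Pld3 had 71.6, 67.7, 75.4 and 75.5 TPM in controls and 427, 389.6, 349 and 369 in knockouts, a 5.29-fold difference with little spread in either group (2.38 ± 0.07, adjusted p = 1.66e-09). Gla had 6.72, 6.01, 7.11 and 6.92 TPM in controls and 44.3, 39.6, 32.6 and 34.6 in knockouts (5.65-fold; 2.33 ± 0.10, adjusted p = 3.57e-08). Lipa followed closely, with 61.6 to 69.0 TPM in controls and 297 to 380.3 in knockouts (2.29 ± 0.08, adjusted p = 6.28e-09). Gusb (1.62), Hexa (1.502) and Man2b1, a mannosidase (1.28), also rose by more than 1 on the log2 scale. Neu1 (0.91), the lysosomal acid phosphatase Acp2 (0.81), Tpp1 (0.62), the ceramidase Asah1 (0.62), the galactosidase Glb1 (0.61) and the thioesterase Ppt1 (0.50) rose by less. Smpd1, the acid sphingomyelinase, had 76.8, 68.7, 69.7 and 73.1 TPM in controls and 74.8, 71.4, 72.3 and 68.3 in knockouts (-0.01, 95% interval -0.13 to 0.12). Ids was likewise near 0 (-0.02, 95% interval -0.15 to 0.12), and Arsb came close to the threshold (0.25 ± 0.09, adjusted p = 0.0521).

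All 4 lumen cofactors rose. Psap had 871, 852, 866 and 979 TPM in controls at 6 months and 3695, 3735, 3379 and 3488 in knockouts. That is a 4.01-fold difference of means (2.00 ± 0.06, adjusted p = 1.81e-09). Psap was the most abundant member in the knockout lungs, as it was in the controls. Grn had 203, 197, 212 and 208 TPM in controls and 483, 479, 437 and 438 in knockouts (1.16 ± 0.05, adjusted p = 3.62e-08). Npc2 had 489, 444, 484 and 473 TPM in controls and 805, 934, 833 and 802 in knockouts (0.83 ± 0.06, adjusted p = 1.56e-06). No library of these genes overlapped between genotypes. Gm2a, which lifts GM2 ganglioside for hexosaminidase, rose by 0.75 ± 0.07 (adjusted p = 8.62e-06).

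Among the membrane proteins, Cd63 had 329, 335, 346 and 355 TPM in controls at 6 months and 1064, 1098, 952 and 1078 in knockouts (1.61 ± 0.05, adjusted p = 4.44e-09). Npc1, which exports cholesterol from the lysosome, had 41.7, 39.5, 43.9 and 45.8 TPM in controls and 77.7, 77.0, 70.2 and 67.5 in knockouts (0.76 ± 0.07, adjusted p = 1.02e-05). Lamp1 had 858, 824, 836 and 861 TPM in controls and 1278, 1283, 1218 and 1256 in knockouts (0.57 ± 0.04, adjusted p = 1.97e-06). In each gene all 4 knockouts exceeded all 4 controls. The rises of Mcoln1, a calcium channel (0.48 ± 0.07), Lamp2 (0.42 ± 0.05) and Scarb2 (0.21 ± 0.06, adjusted p = 0.0181) were smaller.

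All 9 pump genes rose, by unequal amounts. Atp6v0d2 had 16.8, 12.6, 19.6 and 16.7 TPM in control lungs and 372, 384, 290.3 and 298 in knockouts. That is 20.5-fold, with a log2 fold change of 4.28 ± 0.13 (adjusted p = 2.34e-09), the largest of any member in any of the 4 comparisons. Its partner form Atp6v0d1 had 105, 94.5, 110.2 and 112 TPM in controls and 189, 190.3, 191 and 171 in knockouts (1.76-fold; 0.81 ± 0.06, adjusted p = 3.97e-06). In every control lung Atp6v0d1 had more TPM than Atp6v0d2, and in every knockout lung fewer. Tcirg1 had 20.7, 22.7, 35.6 and 26.5 TPM in controls and 91.8, 74.0, 104 and 74.6 in knockouts (1.68 ± 0.16, adjusted p = 1.37e-05), with wide spread in both groups. Atp6v1c1 had 46.9, 46.8, 50.5 and 49.1 TPM in controls and 137, 129, 118 and 122 in knockouts (1.37 ± 0.06, adjusted p = 3.62e-08). The V1 subunits Atp6v1b2 (1.34), Atp6v1a (0.88) and Atp6v1h (0.53), which form or regulate the ATPase head, rose too. So did the V0 subunit Atp6v0a1 (0.94) and the accessory protein Atp6ap1 (0.39).

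The TFE factors had the lowest median of the roles at 6 months, 0.34 on the log2 scale, against 0.53 for membrane proteins, 0.86 for hydrolases, 0.94 for the pump and 1.00 for the cofactors. Mitf had 5.16, 4.90, 6.43 and 6.07 TPM in controls at 6 months and 11.8, 10.6, 8.84 and 7.97 in knockouts (0.70 ± 0.13, adjusted p = 0.00206). Tfeb had 21.5, 20.5, 22.7 and 30.5 TPM in controls and 29.1, 28.8, 29.8 and 32.3 in knockouts, and here control 4 overlapped with the knockouts (0.34 ± 0.11, adjusted p = 0.0407). Tfe3 had 32.5, 30.8, 35.0 and 34.5 TPM in controls and 42.0, 36.6, 39.8 and 39.3 in knockouts (0.24 ± 0.07, adjusted p = 0.019). Sqstm1, which ties ubiquitinated cargo to autophagosomes and is a known TFE target, had 381, 384, 376 and 381 TPM in controls and 522, 492, 508 and 508 in knockouts (0.41 ± 0.04, adjusted p = 1.89e-05). Of the 36 calls, 33 held in every alternative run; the exceptions were Scarb2, Tfeb and Tfe3.

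Summed macrophage markers were higher in the same lungs. The 11 monocyte and interstitial macrophage markers summed to 1532 to 1920 TPM in controls and 3256 to 4078 in knockouts. Of these 11, 5 were higher and 1 lower. The 15 alveolar macrophage markers summed to 906 to 1229.9 TPM in controls and 4551 to 8229 in knockouts, with 10 higher and 3 lower. The 6 lipid-associated macrophage markers, all higher, summed to 1102 to 1167 TPM in controls and 5523 to 8103 in knockouts, and the leukocyte markers to 1308 to 1668 TPM in controls and 3344 to 3784 in knockouts. AT2 markers summed to 23698 to 25543 TPM in controls and 27178 to 33741 in knockouts, and club cell markers to 17.4% to 21.7% of TPM in controls and 9.75% to 11.2% in knockouts. Their part in the members' rise was not tested. 

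**Figure D3:**
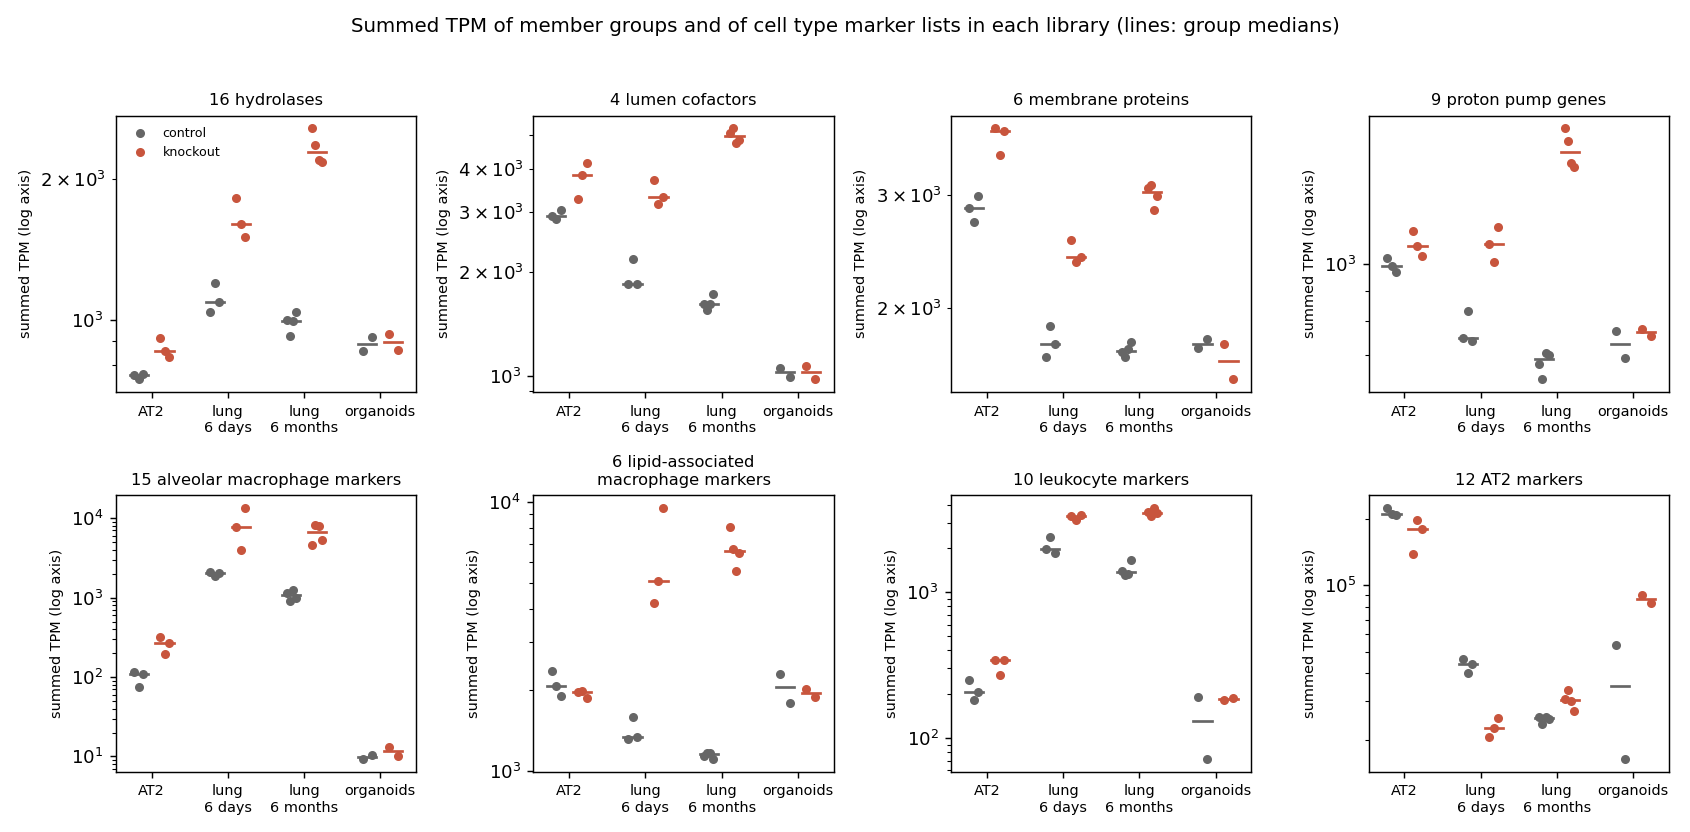
Summed TPM (log axis) of 4 member groups (top row) and 4 marker lists (bottom row) in each library, with controls in grey, knockouts in red and lines for group medians. In both lung sets the knockouts lie above the controls for every member group and for the macrophage and leukocyte lists; in knockout organoids the 15 alveolar macrophage markers sum to only 10.2 to 12.97 TPM. A sum can hide markers that fell: in lung at 6 days, 7 of these 15 had a negative log2 fold change.

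The knockout effect was then compared between the lung times in 1 model that took the difference of the effects within each table. All 39 members had a smaller value at 6 days than at 6 months, with a median difference of -0.53 against -0.16 over all genes, and for 10 of 39 the difference itself passed (no member passed the other way). The share of all genes with a smaller value at 6 days is not given, and their median was itself negative. The count of 39 can therefore not be read apart from that shift. The sign of 5 differences that did not pass, Lamp2, Npc2, Smpd1, Sqstm1 and Tfe3, changed under some alternative. These 5 differences were less negative than the median of all genes. Over 13875 genes, 1.72% were called lower and 0.187% higher at 6 days. Atp6v0d2 differed most, with effects of 1.69 and 4.28 and a difference of -2.59 ± 0.35 (SE; adjusted p = 0.00132). Pld3 (-1.31 ± 0.16, adjusted p = 0.000701) and Psap (-1.12 ± 0.15, adjusted p = 0.00136) came next. Gla (-1.05), Lipa (-0.98), Man2b1 (-0.95), Hexa (-0.87), Atp6v1b2 (-0.71), Atp6v1c1 (-0.70) and Lamp1 (-0.56) also passed, with adjusted p from 0.00947 to 0.0384. Cd63 and Npc2, which rose at both times, had differences of -0.21 ± 0.16 and -0.14 ± 0.14 that did not pass (adjusted p = 0.547 and 0.678). The time points differ in table and tamoxifen schedule as well as in time, and these cannot be told apart. Without control 1, 2 or 3 or knockout 2 of the 6-day set, 3 members passed, and fits of the tables apart, which made fewer false calls on simulated data, gave 8 (not Lamp1 or Atp6v1c1); Pld3, Psap and Atp6v0d2 held in every alternative run.

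**Figure D4:**
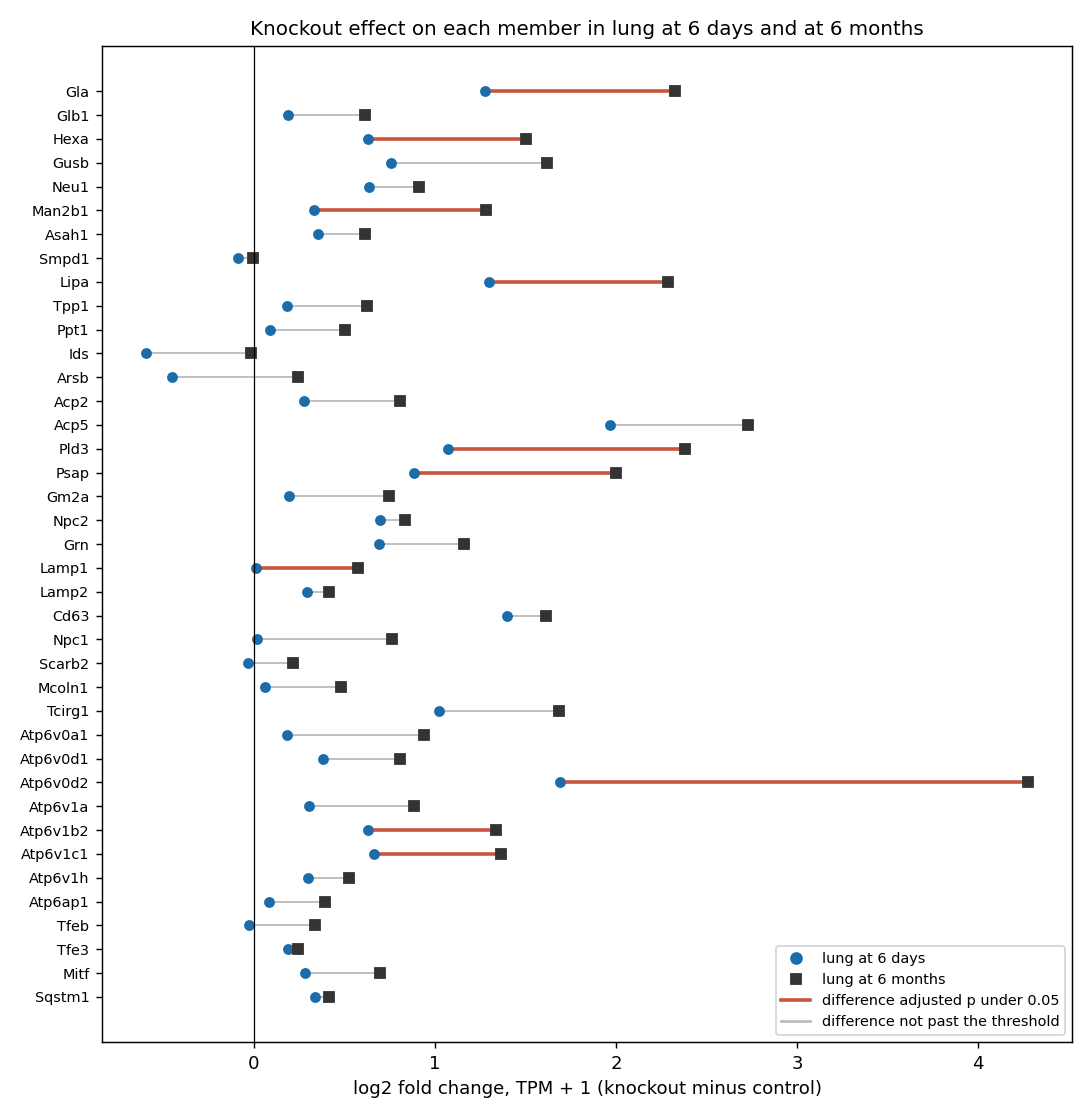
Log2 fold change of each member in lung at 6 days (blue circles) and at 6 months (dark squares), joined by a line that is red where the difference passed an adjusted p of 0.05. In all 39 members the circle lies to the left of the square, and 10 lines are red. The median difference of all genes (6 days minus 6 months) was also negative, at -0.16.

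In organoids, 0 of 38 members tested passed in either direction by limma, and with library weights 1 was called higher and 2 lower. Of the 38, 6 had an unadjusted p under 0.05, but the share of all genes with such a p is not given. Over 12406 genes, 0.218% were called higher and 0.387% lower, so few genes of any kind passed with 2 libraries a group. Of those calls 36.0% were higher as deposited and 46.8% after quantile normalization. The members' median log2 fold change was 0.02 and that of all genes 0.06, and the members' share of TPM was 0.457% to 0.463% in controls and 0.436% to 0.475% in knockouts.

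Acp5 had 15.1 and 20.04 TPM in control organoids and 38.7 and 34.8 in knockouts, apart from each other but not past the threshold (1.03 ± 0.17, adjusted p = 0.0667). Gusb had 67.4 and 62.9 TPM in controls and 85.4 and 87.9 in knockouts (0.41 ± 0.10, adjusted p = 0.0812). On the low side, Tcirg1 had 57.7 and 57.0 TPM in controls and 34.6 and 34.8 in knockouts (-0.71 ± 0.10, adjusted p = 0.06). Values for this subunit were thus lower in knockout organoids, where sorted AT2 cells had shown higher ones; the difference between the kinds of sample was not tested. Psap had 327 and 497 TPM in controls and 194 and 193 in knockouts (-1.05 ± 0.23, adjusted p = 0.0715). Lamp2 had 419 and 621 TPM in controls and 328 and 279 in knockouts (-0.75 ± 0.23, adjusted p = 0.102). Lipa had 13.7 and 17.1 TPM in controls and 10.9 and 9.64 in knockouts (-0.54 ± 0.16, adjusted p = 0.101), below its controls rather than above. These 6 are the members with an unadjusted p under 0.05, and they were picked out after their values were seen.

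Atp6v0d2 was under the filter of 1 TPM in organoids and was not tested, with 0.149 and 0.0612 TPM in controls and 1.04 and 0.641 in knockouts. Atp6v0d1 had 101 and 80.9 TPM in controls and 125 and 112 in knockouts (0.38 ± 0.15, adjusted p = 0.15). Lamp1 had 611 and 533 TPM in controls and 724 and 640.2 in knockouts (0.25 ± 0.14, adjusted p = 0.243). In both genes each knockout culture lay above either control, which is common by chance with 2 libraries a group, and neither gene passed. Tfeb had 7.82 and 7.24 TPM in controls and 6.72 and 6.98 in knockouts. Tfe3 had 26.8 and 23.7 TPM in controls and 26.4 and 27.6 in knockouts. Mitf had 1.40 and 0.372 TPM in controls and 2.03 and 2.08 in knockouts, a level near the filter. None of the 3 factors passed (95% intervals -0.48 to 0.24, -0.23 to 0.42 and -0.12 to 1.63).

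The 15 alveolar macrophage markers summed to 9.22 to 10.5 TPM in controls and 10.2 to 12.97 in knockouts, with 6 to 7 of them at 0 in controls and 2 to 3 at 0 in knockouts. Ptprc, the pan-leukocyte phosphatase CD45, averaged 0.0698 ± 0.0186 TPM in controls and 0.196 ± 0.0570 in knockouts (SD, n = 2). The 10 leukocyte markers summed to 71.5 to 190.2 TPM in controls and 183 to 188 in knockouts, of which Lcp1, an actin-bundling protein, averaged 129 ± 83.5 and 179.9 ± 4.45. The 6 lipid-associated macrophage markers summed to 1781 to 2296 TPM in controls and 1880.4 to 2009.8 in knockouts, mostly Cd9, Fabp5 and Lgals3. The 12 AT2 markers summed to 16409 to 53872 TPM in controls and 83046 to 90425 in knockouts, so the control cultures differed from each other more than the knockouts did. Leaving out 1 library leaves 1 in a group, which has no spread of its own, so counts of calls from those fits are not given.

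The wider pathway was followed in 141 other lysosomal and autophagy genes (cathepsins left out). In AT2 cells 10 of 136 tested, 7.35%, were higher and none lower, a share near the 6.62% of all genes called higher. Galc, which cleaves galactosylceramide, rose by 0.72 ± 0.07 (adjusted p = 0.00312). Galns, a sulfatase of keratan sulfate, rose by 0.54 ± 0.11 (adjusted p = 0.0307). The macrophage-rich membrane proteins Cd68 (15.8 ± 2.18 to 34.1 ± 8.26 TPM, adjusted p = 0.0142) and Slc11a1 (0.873 ± 0.259 to 3.58 ± 1.36 TPM, adjusted p = 0.0269) rose as well, and Sidt2, of the lysosomal membrane, by 0.38 (adjusted p = 0.0398). Gnptab, which makes the mannose 6-phosphate tag that sends hydrolases to lysosomes, rose by 0.69 ± 0.12 (adjusted p = 0.0169), and the autophagosome fusion protein Stx17 by 0.39 (adjusted p = 0.0309). No gene of the lists of other pump subunits (0 of 17; 3 with an unadjusted p under 0.05) or TFE regulators (0 of 20; 5) passed in limma.

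In lung at 6 days, 18 of 139 of these other genes, 12.9%, were higher (3.16% of all genes) and 1 lower: 7 of 28 hydrolases, 6 of 29 membrane proteins, 3 of 17 pump subunits and 2 of 21 TFE regulators were higher, and no gene for enzyme sorting (0 of 15) or autophagy (0 of 29) was (0 and 3 of these had an unadjusted p under 0.05). Of the hydrolases, Lgmn, an asparaginyl endopeptidase, rose by 1.26 ± 0.15 (adjusted p = 0.00595) and Dnase2a, the acid nuclease, by 0.97 (adjusted p = 0.015). Cd68 (1.77, adjusted p = 0.00644), Slc11a1 (1.63, adjusted p = 0.0188) and Tmem192 (0.84, adjusted p = 0.0199) had the smallest adjusted p of the membrane proteins. Atp6v1b1, the form of subunit B known from kidney and airway, fell from 6.51 ± 0.953 to 2.16 ± 0.0694 TPM (adjusted p = 0.00958), where the member Atp6v1b2 rose. The pump subunits Atp6v0a4 (1.11, adjusted p = 0.0257) and Atp6v0e (0.65, adjusted p = 0.0366) rose. Lamtor4, of the Ragulator complex (0.71, adjusted p = 0.0224), and Tfec, the fourth gene of the MiT/TFE family (1.37 ± 0.31, adjusted p = 0.0392), were the TFE regulators that rose.

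In lung at 6 months, 83 of 139, 59.7%, were higher (15.9% of all genes) and 5 lower. By list, 23 of 28 hydrolases, 20 of 29 membrane proteins, 9 of 17 pump subunits, 10 of 15 sorting genes, 11 of 21 TFE regulators and 10 of 29 autophagy genes were higher. Cd68 (50.6 ± 4.88 to 758 ± 77.4 TPM; 3.88 ± 0.08, adjusted p = 6.41e-10) and Slc11a1 (3.17 ± 0.10, adjusted p = 2.66e-09) had the smallest adjusted p of the membrane proteins, followed by the transporter Mfsd12 (2.31, adjusted p = 6.31e-08). Of the hydrolases, Lgmn rose by 1.57 (adjusted p = 4.37e-09) and Dpp7, a dipeptidase, by 1.41 (adjusted p = 2.64e-07). The pump genes Atp6ap2 (0.85), Atp6v0b (0.85) and Atp6v1e1 (0.83) rose by similar amounts (adjusted p from 6.14e-07 to 2.46e-06). Gnptab (0.87), Cln8 (0.74), which ships enzymes out of the endoplasmic reticulum, and the mannose 6-phosphate receptor M6pr (0.38) had the smallest adjusted p of the sorting genes, up to 9.57e-05. Tfec rose from 2.85 ± 0.564 to 12.5 ± 1.70 TPM (1.82 ± 0.13, adjusted p = 2.2e-06), beside the folliculin partner Fnip2 (1.30, adjusted p = 2.23e-06) and the Rag GTPase Rragc (0.64, adjusted p = 5.1e-05). Among autophagy genes Atg7 (0.76), Gabarap (0.45) and Plekhm1 (0.53) had the smallest adjusted p, up to 0.000126. The 5 that fell were Atp6v1b1 (-1.15), Atp6v0e2 (-0.65), Laptm4b (-0.22), Laptm4a (-0.17) and Map1lc3a (-0.15), named because they are few. In organoids 0 of 132 passed in limma, and 27 had an unadjusted p under 0.05. The share of all genes with such a p is not given, so these unadjusted counts, here and above, cannot be read as a result about the lists.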

How the data were processed

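Poly(A) libraries that do not keep the strand were made with the TruSeq protocol, per the labels' protocols, so reads of a gene and its antisense partner cannot be separated. The authors deposited 4 tables of TPM; the build was GRCm38, per the submitters' processing notes, with aligner, quantifier and annotation not given in the sources used here. All listed 24972 rows, of which 2 with a repeated symbol were dropped. Every table had its own limma fit (version 3.58.1, R 4.3.3) on log2(TPM + 1), genotype only, with a variance trend, for genes with at least 1 TPM in as many libraries as the smaller group; p-values were two-sided and Benjamini-Hochberg adjusted over the table (0.05). The time difference used 1 limma model of both lung tables with a variance per table; the fits were tested on simulated data, where this model made more false calls than fits of the tables apart. Where the labels do not name separate mice, p-values measure the spread between libraries. Depth is unknown.

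The members and lists were chosen with earlier results of these data known. Single genes of the cell type marker lists were named outside the rule that follows. Values per library are given for up to 3 members with the largest change among those that passed, by role, and in each comparison for Lamp1, Atp6v0d1, Atp6v0d2, Acp5, Tfeb, Tfe3 and Mitf; of each other list, the up to 3 genes with the smallest adjusted p that passed, of which 1 gene is not reported here. The alternatives changed the pseudocount (0.1), the filter (none, or 5 TPM), the scaling (median-ratio, quantile), or the variance model (no trend, library weights), or used a replicate block or left out each library in turn, and, for the time difference, a shared spread in place of library weights. The separate fits were added after that test.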

Additional observations from a re-analysis of the deposited data

Results flagged for a closer look

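In lung at 6 months, 5 single values lay apart from the rest of their group of 4 by Dixon's ratio. They were Tpp1 in control 2 at 77.4 TPM (the other controls had 86.7 to 88.6), Acp5 in control 4 at 39.3 TPM (19.5 to 21.4), Psap in control 4 at 979 TPM (852 to 871), Man2b1 in knockout 1 at 138 TPM (113 to 115) and Atp6v0d1 in knockout 4 at 171 TPM (189 to 191). Of 78 groups tested, chance flags about 1 in 20.

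The knockout effect in lung differed between 6 days and 6 months for 10 members, by the test of the difference given above. Over 13875 genes, 1.72% were called lower at 6 days, and only Pld3, Psap and Atp6v0d2 held in every alternative run. The differences (6 days minus 6 months, log2) were -1.05 for Gla, -0.87 for Hexa, -0.95 for Man2b1, -0.98 for Lipa, -1.31 for Pld3, -1.12 for Psap, -0.56 for Lamp1, -2.59 for Atp6v0d2, -0.71 for Atp6v1b2 and -0.70 for Atp6v1c1. In Lamp1 the effect was 0.01 at 6 days and 0.57 at 6 months, a difference that did not pass in the fits of the tables apart.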

How the results depend on the processing

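The count of members higher in AT2 cells was 6 as reported, 1 with no filter, and 2 with median-ratio scaling or quantile normalization; leaving out 1 library gave 1 to 7. In lung at 6 days the 13 higher members became 30 with library weights (and 2 lower, where none was reported) and 8 with the replicate block, and 2 to 19 without 1 library. In lung at 6 months the 36 ranged from 33 to 37. In organoids, library weights gave 1 higher and 2 lower, against 0 and 0. The 10 members with a smaller effect at 6 days became 3 with the replicate block and 3 to 15 without 1 library. The cause of these changes was not tested. For library weights, the replicate block, the filters and the runs without 1 library, the share of all genes called is not given. Tfeb in lung at 6 days, at -0.03, was 0.21 and past the threshold with library weights. Across the 4 comparisons of genotype, 36 values that did not pass as reported, that of Tfeb included, changed sign under some alternative, and no value that passed did. Over all genes, 802 were higher in AT2 cells as deposited and 420 after median-ratio scaling, against 447 and 946 in lung at 6 days. Replicate numbers were not taken to pair the libraries, because the labels do not say that a number marks a shared mouse, litter or day. Correlations of same-numbered libraries ran from -0.15 to 0.17 in AT2 cells and from -0.15 to 0.00 in lung at 6 days. They ran from 0.07 to 0.21 in lung at 6 months and were -0.07 in organoids. In the same order, 2 of 6, 0 of 6, 7 of 8 and 0 of 4 libraries correlated best with their own number. In lung at 6 months every same-numbered pair thus correlated positively, a hint of pairing from the data and not the design. The replicate block gave 36 higher members there too. Atp6v0d2 in AT2 cells gave no value with the filter at 5 TPM. Depth is unknown, so no floor can be given for Atp6v0d2 and Mitf in organoids.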
